A study of Schizosaccharomyces pombe with 24 samples.

Results

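The genes described here are the DNA replication and repair genes of fission yeast (Schizosaccharomyces pombe) whose symbols begin with mcm, orc, rfc, psf, sld, rad or rhp followed by a digit. They were found by that rule in the annotated symbols of the array, with the brightest probe set kept for each gene, and numbered 53 of 4981 features tested. Of these, 22 carry the replication prefixes (mcm, orc, rfc, psf, sld) and 31 are rad or rhp genes. The rule used names only and no measured value. The prefixes do not collect the whole of either process, since for example cdc23, the fission yeast Mcm10, and crb2, also known as rhp9, carry other symbols.

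Transcript levels were measured on 24 Affymetrix Yeast Genome 2.0 arrays, 1 for each RNA sample, from asynchronous cultures with a labelled growth temperature of 30 °C. The groups were strains with deletions of histone acetyltransferase (HAT) genes: Δgcn5, Δmst2, Δelp3, the doubles Δgcn5 Δmst2, Δgcn5 Δelp3 and Δmst2 Δelp3, the triple mutant Δgcn5 Δelp3 Δmst2, a temperature-sensitive mst1 strain (mst1-ts), and wild type. The study describes 30 °C as semi-permissive for mst1-ts, and the Mst1 function left at it was not measured here. Each group had 3 arrays except Δgcn5 Δelp3 with 2 and the triple mutant with 1, and the methods describe the replicates as independent isolates. The values are log2 intensities after RMA, so a difference of 1 is a change of 2-fold, and a probe set's level is comparable between arrays but not with that of another probe set.

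Per the study's strain list, all strains carried ura4 and ade6 mutations and all but mst1-ts carried leu1-32. The Δgcn5 and Δgcn5 Δmst2 strains were in addition his3 mutants, Δmst2 was marked with ura4+, and the mst1-ts strain had mst1 deleted and a mutant mst1 copy expressed from an nmt promoter at leu1. The mst1 probe set read 11.94, 11.61 and 11.38 in mst1-ts, against 10.56, 10.58 and 10.09 in wild type, and this reading does not test the mutation. The titles of the mst1-ts arrays name mst2, while their genotype labels name mst1. Gcn5 and Elp3 are acetyltransferases of the SAGA and Elongator complexes, and Mst2 and Mst1 belong to the MYST family, with Mst1 the essential one.

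Replication starts at origins bound by the origin recognition complex (ORC), which loads the MCM2-7 helicase. Sld3 and the GINS complex (Psf1, Psf2, Psf3 and Sld5) help to turn the loaded helicase into a moving one, and the clamp loader RFC places the PCNA ring that holds polymerases on DNA. The rad and rhp genes were named from radiation-sensitive mutants and from relatives of budding yeast RAD genes, and they encode the DNA damage checkpoint, homologous recombination, nucleotide excision repair, post-replication repair and a few proteins of other roles.

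Some libraries went against their labels. The replicate 2 library labelled Δgcn5 read 10.93 for gcn5, against 5.37 and 5.72 in the other two, and only 5.21 for mst2. The replicate 2 library labelled Δmst2 read 10.01 for mst2, against 5.18 and 5.28 in the other two, and 5.44 for gcn5. The first also read 13.30 for ura4 and 13.69 for his3, against 7.39 and 7.33, and 6.18 and 5.94, in the other libraries labelled Δgcn5. The second read 7.18 for ura4 and 5.90 for his3, against 13.08 and 13.50, and 13.07 and 13.61, in the others labelled Δmst2. For these genes each thus had the readings of the other label. Both were kept under their labels, and results are also given without them. Wild-type replicate 2 had a ura4 level of 12.85, against 7.40 and 7.45 in the other wild-type arrays, and an mst2 level of 8.73, against 9.89 and 10.13. This array enters every comparison with wild type. The deleted genes were low in all other mutant libraries. The Δmst2 replicate 1 array also stood apart, holding the lowest or highest of the 24 values for 27 of the 53 members and for 41.4% of all features. Correlations between replicates over the members ran from 0.859 (Δmst2) to 0.996 (Δgcn5 Δelp3).

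The 9 arrays lacking elp3 differed from the other 15 in 2 further ways. Per the labels they were prepared with MessageAmp II-Biotin Enhanced from 1 µg of RNA and the others with the Affymetrix One-Cycle protocol from 10 µg, while the study's methods name the one-cycle protocol alone. All 9 carried the second of 2 experiment dates, which among the others only Δgcn5 Δmst2 replicate 3 did. The 3′ minus 5′ signal of 7 control transcripts, a measure of how evenly the RNA was copied, averaged 0.94 to 1.13 in Δelp3, 0.84 to 1.05 in Δmst2 Δelp3, 0.69 and 0.70 in Δgcn5 Δelp3 and 0.65 in the triple mutant, against 0.60 to 0.68 in wild type. GPD3 had the widest gap of the 7, at 3.18 to 4.13 in Δelp3 and 2.34 to 2.65 in Δmst2 Δelp3, against 1.20 to 1.67 in wild type. The gap was not shared by all controls, since RIP1 read 0.38 to 0.50 in Δelp3, against 0.45 to 0.51 in wild type. The 7 include URA4, whose gene differs between these strains. Loss of elp3, the labelled protocol and, but for that 1 array, the date therefore cannot be told apart in any comparison with wild type below.

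The comparison of each mutant with wild type came from one limma fit across all features, and a gene is said to have risen or fallen where its Benjamini-Hochberg adjusted p was under 0.05. By this test 0.12% to 35.6% of all features changed in single comparisons, and their share over all 8 comparisons together was not counted. Of the 53 members, 34 changed in at least 1 of the 8, which share the same wild-type arrays. None changed by 1.7 or more on the log2 scale, where 2.01% of features did so in Δgcn5 Δmst2, 3.03% in mst1-ts, 0.903% in Δelp3, 1.24% in Δgcn5 Δelp3, 1.08% in Δmst2 Δelp3, 2.01% in the triple mutant, 0.1% in Δgcn5 and 0.0803% in Δmst2. RNA of whole cultures was measured, so a change in the share of cells at a stage of the cell cycle and a change in transcript per cell cannot be told apart.

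No member changed in the libraries labelled Δgcn5 or Δmst2 by limma, where 0.12% and 0.161% of all features did. At an unadjusted p under 0.05 there were 3 members in Δgcn5 and 13 in Δmst2, beside 317 and 842 of all 4981 features. Without both libraries that went against their labels, psf3 fell by 0.69 ± 0.18 (log2, SE, adjusted p = 0.0332) and rad54 rose by 0.63 ± 0.14 (adjusted p = 0.0109) in Δgcn5, where 6.08% of all features changed. There was still none in Δmst2 (0.582% of all features). There 17 members had an unadjusted p under 0.05, and all features were not counted at that threshold. Without Δmst2 replicate 3 alone, mcm4 (-0.69, adjusted p = 0.0323) and mre11 (0.63, 0.0336) were called in Δmst2.

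In the other mutants the share of members called in either direction was near that of all features. In Δgcn5 Δmst2 6 members rose and 7 fell, 24.5% of members against 24.9% of features. In mst1-ts 3 rose and 12 fell, 28.3% against 35.6%. In Δelp3 14 rose and 1 fell, 28.3% against 21.5%. In Δgcn5 Δelp3 12 rose and 1 fell, 24.5% against 21.5%, and in Δmst2 Δelp3 11 rose and 1 fell, 22.6% against 21.9%. Of all features 13% rose and 8.49% fell in Δelp3, 12.5% and 9.01% in Δgcn5 Δelp3, and 12.7% and 9.19% in Δmst2 Δelp3. Rises thus outnumbered falls by more among the members than over all features in each of these strains, and this was not tested. In the triple mutant 4 rose and 1 fell, 9.43% against 11.8%, with the spread of its lone array taken from the other groups. Without both libraries that went against their labels the counts were 18, 18, 18, 17, 17 and 9 in the same order, beside 30.3%, 40.4%, 26.5%, 27.3%, 26.6% and 16.5% of features. The count of 15 in Δelp3 was 7 without Δelp3 replicate 1 and 9 without Δelp3 replicate 2 or wild-type replicate 2 or 3, and the 13 in Δgcn5 Δelp3 were 5 and 4 without its replicates 1 and 2. The share of all features was not counted in the fits that left out 1 array. With experiment date as a covariate no member changed in the 4 strains lacking elp3, where 1.69% to 2.95% of features did, and that fit rests on the lone Δgcn5 Δmst2 array of the second date.

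The replication genes and the rad and rhp genes were also counted apart, and the counts of both were not tested against each other. In mst1-ts 7 of 22 replication genes fell and none rose, while 5 of 31 rad and rhp genes fell and 3 rose, beside 21.8% of features that fell and 13.7% that rose. In Δelp3 9 of 22 replication genes rose and 1 fell, and 5 of 31 rad and rhp genes rose, beside 13% of features that rose and 8.49% that fell. In Δmst2 Δelp3 3 of 22 replication genes rose, and 8 of 31 rad and rhp genes rose and 1 fell, beside 12.7% of features that rose and 9.19% that fell. In Δgcn5 Δelp3 6 of 22 rose and 1 fell, and 6 of 31 rose, beside 12.5% and 9.01% of features. In Δgcn5 Δmst2 1 of 22 rose and 5 fell, and 5 of 31 rose and 2 fell, beside 13.6% and 11.3% of features. In the triple mutant 2 of 22 rose and 1 fell, and 2 of 31 rose, beside 6.36% and 5.4% of features. The median change of the members was 0.19 in Δelp3, 0.25 in Δgcn5 Δelp3, 0.14 in Δmst2 Δelp3, 0.09 in the triple mutant, -0.01 in Δgcn5 Δmst2 and -0.14 in mst1-ts, where the median of all features lay between -0.07 and 0.02.

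**Figure D1:**
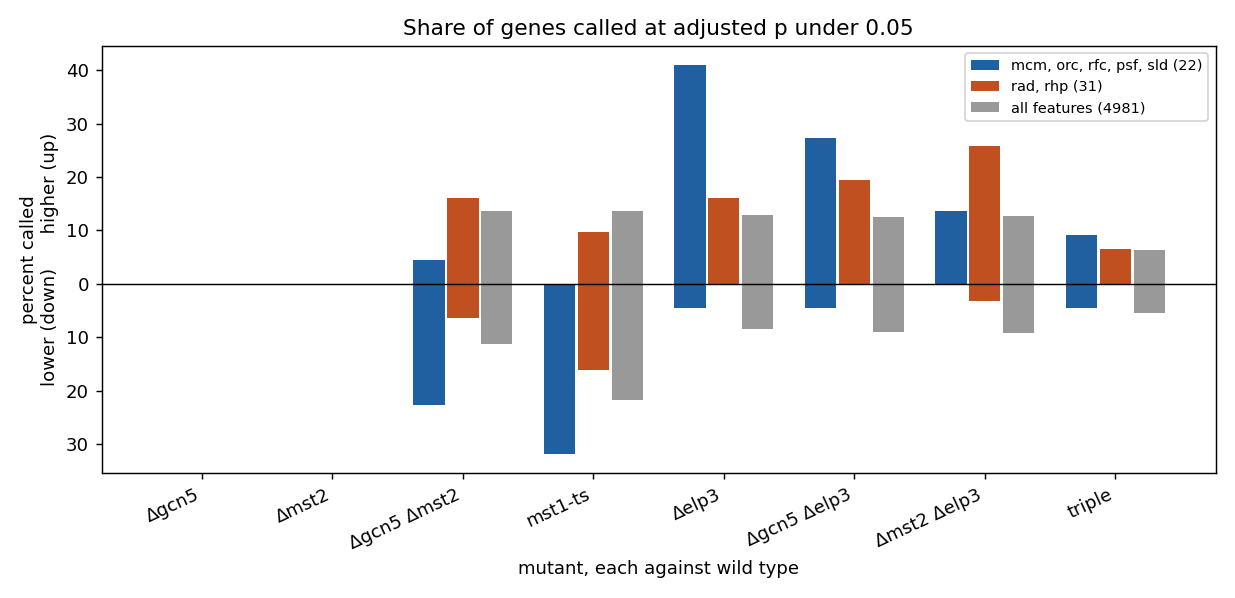
Percent of genes called at adjusted p under 0.05 in each mutant against wild type (limma), with bars above 0 for genes that rose and below 0 for genes that fell. Blue bars are the 22 replication genes, orange bars the 31 rad and rhp genes and grey bars all 4981 features. The blue bars reach below 0 in mst1-ts (7 of 22 fell) and above 0 in Δelp3 (9 of 22 rose).

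**Figure D2:**
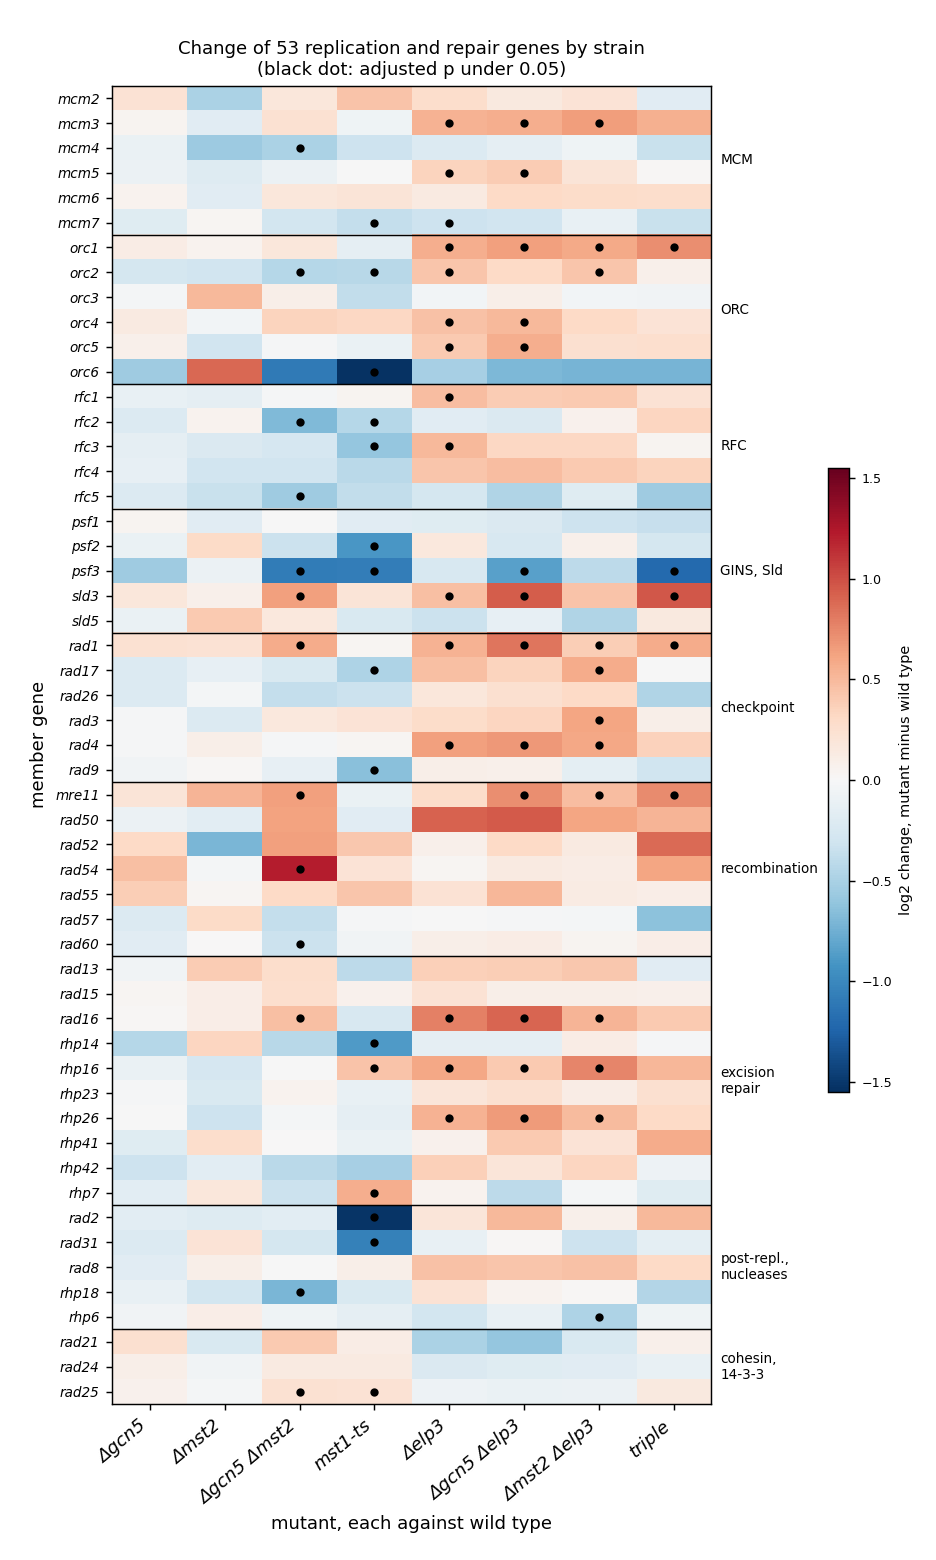
Log2 change of each of the 53 members (rows, grouped by role) in each mutant against wild type (columns), red for higher and blue for lower in the mutant, with a black dot where the adjusted p was under 0.05. Black dots on red are gathered in the columns of strains lacking elp3, and the darkest blue cells are orc6 and rad2 in mst1-ts.

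The MCM genes encode the ring of 6 subunits that unwinds DNA at the fork. Their changes were small. mcm3 rose in Δelp3 (0.54 ± 0.13 log2, SE, adjusted p = 0.00635), Δgcn5 Δelp3 (0.56 ± 0.14, 0.0105) and Δmst2 Δelp3 (0.65 ± 0.13, 0.00208), and its change in the triple mutant was 0.55. mcm3 read 11.87, 11.66 and 11.96 in Δelp3, against 11.29, 11.15 and 11.43 in wild type, with no overlap between these groups. mcm5 rose by 0.35 in Δelp3 and 0.39 in Δgcn5 Δelp3. Of the others, mcm7 fell by 0.37 in mst1-ts and by 0.32 in Δelp3, and mcm4 fell by 0.49 in Δgcn5 Δmst2, while mcm2 and mcm6 changed in no strain. The largest change of a called MCM gene was 1.57-fold (mcm3 in Δmst2 Δelp3).

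The ORC genes encode the 6 subunits that mark origins. In Δelp3, orc1 (0.57 ± 0.13, adjusted p = 0.00417), orc2 (0.43), orc4 (0.46) and orc5 (0.41) rose. orc1, which encodes a subunit with an ATPase domain, also rose in Δgcn5 Δelp3 (0.63), Δmst2 Δelp3 (0.59) and the triple mutant (0.72). It read 11.64, 11.51 and 11.61 in Δelp3 and 11.74 in the triple mutant, against 10.89, 11.00 and 11.17 in wild type. orc4 and orc5 rose in Δgcn5 Δelp3 (0.50 and 0.57), and orc2 in Δmst2 Δelp3 (0.43). orc2 moved both ways, since it fell by 0.44 in Δgcn5 Δmst2 and by 0.43 in mst1-ts, while orc3 changed in no strain.

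orc6, the subunit least like the others, had the largest change of all members, a fall of 1.53 ± 0.42 (2.89-fold, adjusted p = 0.00895) in mst1-ts. It read 7.69, 7.67 and 8.45 in mst1-ts, against 10.08, 9.28 and 9.05 in wild type. All mst1-ts arrays lay below all wild-type arrays, although the replicates of both groups spread widely. orc6 read 7.63, 8.60 and 8.91 in Δgcn5 Δmst2, a change of -1.09 that missed the test with all 24 arrays and passed it without both libraries that went against their labels (adjusted p = 0.0353). In the strains lacking elp3 it read 8.96, 8.87 and 9.01 in Δelp3, 8.76 and 8.79 in Δgcn5 Δelp3, 8.81, 8.52 and 8.93 in Δmst2 Δelp3 and 8.75 in the triple mutant, which is below all wild-type arrays, but the test was not passed. The libraries labelled Δgcn5 read 8.45, 9.27 and 9.04, and those labelled Δmst2 read 11.57, 9.44 and 10.08, with replicate 1 the highest of all arrays. Over the 24 arrays orc6 had the widest range of any member, 3.94 log2 units, where the median member had 1.16. Without wild-type replicate 1 the fall in mst1-ts was 1.23 and missed the test (adjusted p = 0.0561).

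The RFC clamp loader has a large subunit, Rfc1, and 4 small ones. rfc1 (0.48) and rfc3 (0.50) rose in Δelp3, with adjusted p of 0.0282 and 0.0437. rfc3 moved the other way in mst1-ts, where it fell by 0.61 ± 0.17 (adjusted p = 0.00996) and read 10.60, 10.60 and 10.50, against 11.09, 11.14 and 11.28 in wild type. rfc2 fell in Δgcn5 Δmst2 (0.68 ± 0.15, adjusted p = 0.0035) and mst1-ts (0.44), and rfc5 fell in Δgcn5 Δmst2 (by 0.55). rfc4 passed the test in no strain, although its lowest value in the arrays lacking elp3, 11.95, was above its highest in the others, 11.73.

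Of the GINS subunits, psf3 fell in 4 strains and psf2 in 1, while psf1 and sld5 changed in none. psf3 fell by 1.20 ± 0.30 in the triple mutant (2.3-fold, adjusted p = 0.0142), by 1.08 ± 0.21 in Δgcn5 Δmst2 (0.00145), by 1.07 ± 0.21 in mst1-ts (0.000825) and by 0.84 ± 0.23 in Δgcn5 Δelp3 (0.0168). It read 10.98 in the triple mutant, 11.08, 11.17 and 11.07 in Δgcn5 Δmst2, 11.00, 10.96 and 11.39 in mst1-ts, and 11.36 and 11.33 in Δgcn5 Δelp3, against 12.20, 11.98 and 12.37 in wild type. All of these lay below all wild-type arrays. psf3 was thus low in mst1-ts, which has gcn5, as well as in strains without it. It read 12.05, 11.98 and 11.78 in Δelp3 and 12.01, 11.37 and 11.95 in Δmst2 Δelp3, neither of which passed the test, and the 11.37 of Δmst2 Δelp3 replicate 2 lies at the level of Δgcn5 Δelp3. In the libraries labelled Δgcn5 psf3 read 11.51, 11.92 and 11.47, where 11.92 belongs to the library in which gcn5 was expressed. In those labelled Δmst2 it read 12.54, 11.57 and 12.15, where 11.57 belongs to the library that lacked gcn5 signal. Within the strains labelled by the MessageAmp protocol, psf3 was lower in the triple mutant than in Δelp3 by 0.96 ± 0.30 (adjusted p = 0.0493), a comparison in which labelled protocol and date are shared. The corresponding change in Δgcn5 Δelp3 against Δelp3 was -0.59 ± 0.23 and missed the test (adjusted p = 0.368).

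psf2 fell in mst1-ts by 0.90 ± 0.22 (1.86-fold, adjusted p = 0.0049) and read 9.04, 9.01 and 9.48, against 10.14, 10.27 and 9.81 in wild type. It had a wide spread in Δgcn5 Δmst2 (9.09, 9.90 and 10.25) and did not pass the test there.

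sld3, whose product recruits Cdc45 to origins, rose in 4 strains. It rose by 0.97 ± 0.23 in the triple mutant (adjusted p = 0.0104), by 0.94 ± 0.18 in Δgcn5 Δelp3 (0.00136), by 0.64 ± 0.16 in Δgcn5 Δmst2 (0.0078) and by 0.47 ± 0.16 in Δelp3 (0.0427). It read 10.43 in the triple mutant, 10.43 and 10.37 in Δgcn5 Δelp3, 10.04, 10.01 and 10.26 in Δgcn5 Δmst2 and 9.90, 9.90 and 10.00 in Δelp3, against 9.38, 9.64 and 9.37 in wild type. By group mean the highest levels were in the double and triple mutants without gcn5. No array of the 4 strains that passed the test overlapped wild type, and neither did those of Δmst2 Δelp3, which did not pass it. The remaining strains read 9.87, 9.90 and 9.94 in Δmst2 Δelp3, 9.69, 9.62 and 9.67 in mst1-ts, 9.80, 9.69 and 9.41 in the libraries labelled Δgcn5 and 9.10, 10.01 and 9.51 in those labelled Δmst2. Here 10.01 belongs to the library that lacked gcn5 signal.

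**Figure D3:**
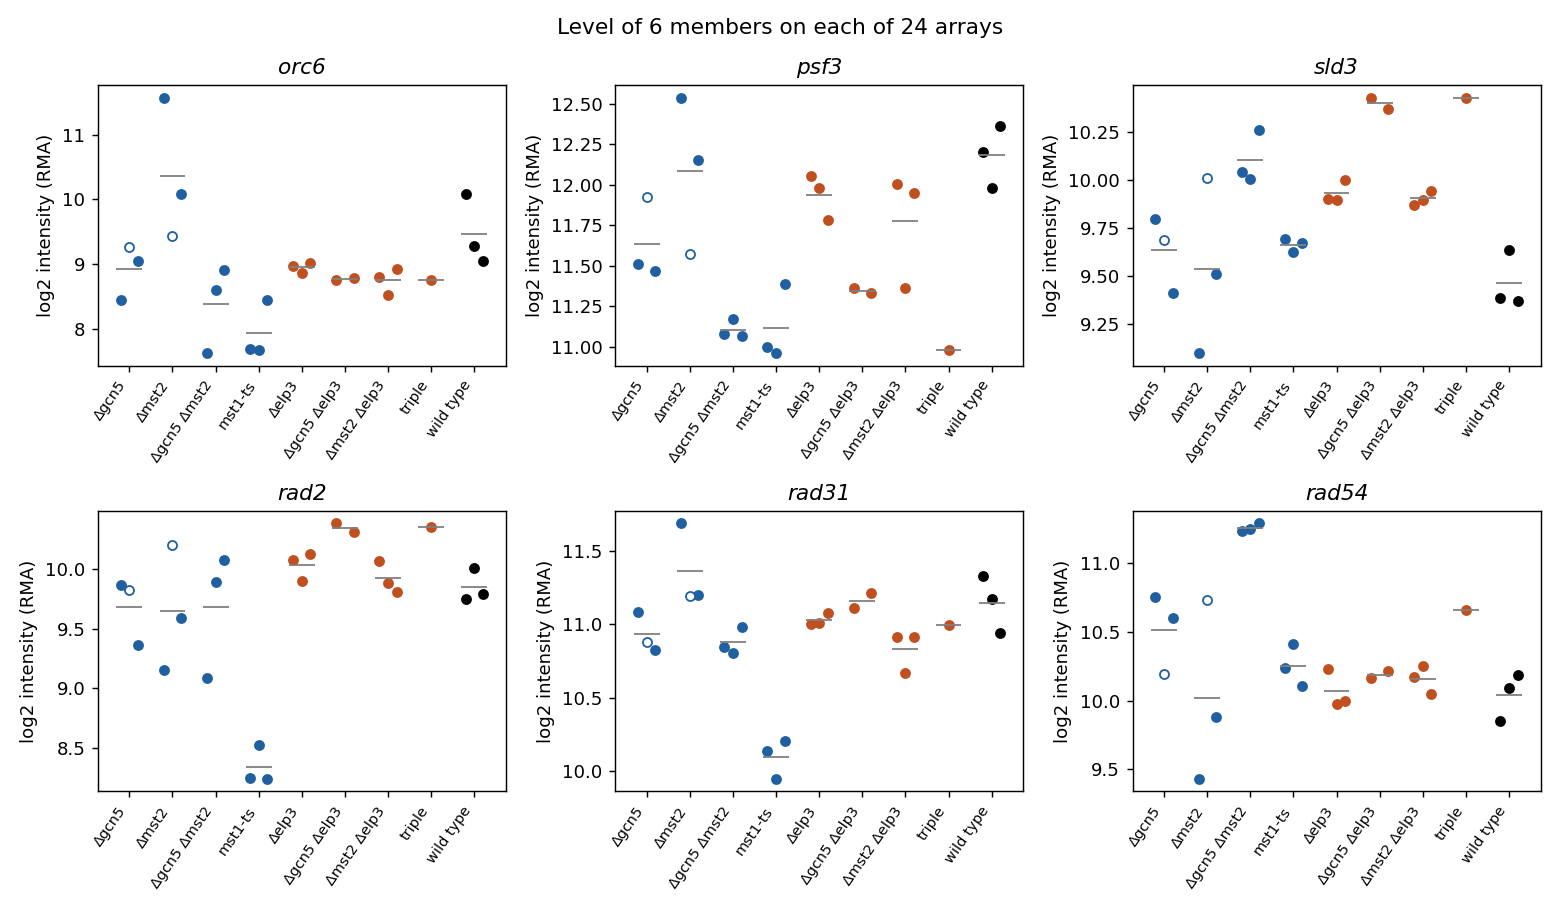
Log2 intensity of orc6, psf3, sld3, rad2, rad31 and rad54 on each of the 24 arrays by group, with a grey line at the group mean, orange points for groups lacking elp3, black for wild type and blue for the others, and a separate y axis for each gene. Open points are the libraries labelled Δgcn5 and Δmst2 that went against their labels. All mst1-ts points of rad2 and rad31 lie below every other point of the same gene. psf3 is low in mst1-ts and in the double and triple mutants without gcn5. psf3 also read 11.51, 11.47 and 11.57 in the libraries labelled Δgcn5 or Δmst2 that lacked gcn5 signal, below all wild-type points.

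The checkpoint genes encode the damage sensors of the cell. rad1, a subunit of the ring-shaped 9-1-1 clamp, rose in 5 strains, more than any other member. It rose by 0.83 ± 0.11 in Δgcn5 Δelp3 (adjusted p = 7.71e-05), 0.58 ± 0.10 in Δgcn5 Δmst2 (0.00068), 0.57 ± 0.14 in the triple mutant (0.016), 0.53 ± 0.10 in Δelp3 (0.00145) and 0.38 ± 0.10 in Δmst2 Δelp3 (0.0138). It read 10.93 and 10.67 in Δgcn5 Δelp3 and 10.46, 10.56 and 10.61 in Δgcn5 Δmst2, against 9.90, 10.02 and 9.97 in wild type. The Δgcn5 Δmst2 arrays were labelled by the same protocol as wild type, and all 3 were above all wild-type arrays.

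Its partner in the clamp, rad9, fell by 0.65 ± 0.13 in mst1-ts (1.57-fold, adjusted p = 0.000832), reading 8.08, 8.21 and 8.14, against 8.62, 8.81 and 8.96 in wild type. rad17, the loader of this clamp, fell by 0.47 in mst1-ts and rose by 0.57 in Δmst2 Δelp3. rad4, which encodes a scaffold protein needed for initiation and for the checkpoint, rose by 0.63 in Δelp3, 0.68 in Δgcn5 Δelp3 and 0.60 in Δmst2 Δelp3. rad3, the ATR kinase of this yeast, rose in Δmst2 Δelp3 alone (0.61 ± 0.15, adjusted p = 0.00763) and rad26, its partner, in no comparison with wild type.

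Of the 7 recombination genes rad54, mre11 and rad60 passed the test. rad54 (listed on the array as rhp54) encodes a chromatin remodeller that works with the strand-exchange protein. It rose in Δgcn5 Δmst2 by 1.21 ± 0.22 (2.32-fold, adjusted p = 0.000884) and passed the test in no other strain with all arrays. It read 11.23, 11.25 and 11.29 in Δgcn5 Δmst2, against 9.85, 10.09 and 10.19 in wild type, so that the double mutant arrays lay close together and far above every wild-type array. The triple mutant read 10.66, while Δelp3 (10.23, 9.98 and 10.00), Δgcn5 Δelp3 (10.16 and 10.22) and Δmst2 Δelp3 (10.17, 10.25 and 10.05) lay close to wild type, as did mst1-ts (10.24, 10.41 and 10.11). Libraries labelled Δgcn5 read 10.75, 10.19 and 10.60 and those labelled Δmst2 9.43, 10.73 and 9.88, and in each group replicate 2 is the library that went against its label. Without both of these the departure of Δgcn5 Δmst2 from the sum of both single changes was 0.97 ± 0.20 (adjusted p = 0.012), where 3.63% of features had such a departure, and with them it missed the test.

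mre11 (listed as rad32), the nuclease that works with Rad50 at broken ends, rose by 0.73 in the triple mutant, 0.72 in Δgcn5 Δelp3, 0.64 in Δgcn5 Δmst2 and 0.48 in Δmst2 Δelp3. It read 9.56 in the triple mutant, 9.56 and 9.53 in Δgcn5 Δelp3 and 9.25, 9.39 and 9.74 in Δgcn5 Δmst2, against 8.87, 9.02 and 8.60 in wild type. Its partner rad50 had larger changes (0.91 in Δelp3 and 0.95 in Δgcn5 Δelp3) that missed the test. For rad50 the wild-type arrays spread from 8.47 to 9.67 and those labelled Δgcn5 from 7.51 to 9.87. rad60, a protein with SUMO-like domains, fell by 0.33 in Δgcn5 Δmst2, and rad52 (listed as rad22, 0.88 in the triple mutant), rad55 (rhp55) and rad57 (rhp57) passed the test in no strain.

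In nucleotide excision repair the changes were mostly rises in strains lacking elp3. rad16, the XPF nuclease, rose by 0.90 ± 0.16 in Δgcn5 Δelp3 (adjusted p = 0.000884), 0.78 ± 0.15 in Δelp3 (0.00113), 0.53 in Δmst2 Δelp3 and 0.46 in Δgcn5 Δmst2. It read 10.58 and 10.51 in Δgcn5 Δelp3 and 10.40, 10.36 and 10.53 in Δelp3, against 9.60, 9.52 and 9.82 in wild type. rhp16, a helicase-like protein of global repair, rose by 0.76 ± 0.12 in Δmst2 Δelp3 (adjusted p = 0.000344), 0.60 in Δelp3 and 0.41 in Δgcn5 Δelp3, and also in mst1-ts, by 0.45. rhp26, the relative of human CSB in transcription-coupled repair, rose by 0.54 in Δelp3, 0.66 in Δgcn5 Δelp3 and 0.49 in Δmst2 Δelp3.

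In mst1-ts rhp7, the partner of rhp16, rose by 0.56 ± 0.18 (adjusted p = 0.025), and rhp14, the XPA damage-recognition gene, fell by 0.88 ± 0.29 (adjusted p = 0.0253). The rhp14 values overlapped, at 8.40, 8.68 and 9.01 in mst1-ts, against 9.98, 9.82 and 8.93 in wild type. The other excision repair genes, rad13, rad15, rhp23, rhp41 and rhp42, changed in no strain.

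Among the rad and rhp genes the largest changes of mst1-ts were in rad2 and rad31. rad2 encodes the flap endonuclease (FEN1) that trims Okazaki fragments. It fell by 1.51 ± 0.24 (2.86-fold, adjusted p = 0.000112) and read 8.24, 8.53 and 8.24 in mst1-ts, against 9.75, 10.01 and 9.79 in wild type. No other array came below 9.09, the value of Δgcn5 Δmst2 replicate 1, whose group read 9.09, 9.89 and 10.08. The rest read 10.08, 9.91 and 10.13 in Δelp3, 10.39 and 10.32 in Δgcn5 Δelp3, 10.07, 9.89 and 9.81 in Δmst2 Δelp3, 10.35 in the triple mutant, 9.87, 9.82 and 9.36 in the libraries labelled Δgcn5 and 9.16, 10.20 and 9.59 in those labelled Δmst2.

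rad31, a subunit of the enzyme that activates SUMO, fell by 1.05 ± 0.13 (2.07-fold, adjusted p = 1.12e-05) in mst1-ts, the smallest adjusted p of any member. It read 10.13, 9.95 and 10.21 in mst1-ts, against 11.33, 11.17 and 10.94 in wild type. Every other array was at 10.67 or above. The other groups read 11.00, 11.01 and 11.07 in Δelp3, 11.11 and 11.21 in Δgcn5 Δelp3, 10.91, 10.67 and 10.91 in Δmst2 Δelp3, 11.00 in the triple mutant, 10.85, 10.80 and 10.98 in Δgcn5 Δmst2, 11.08, 10.88 and 10.83 in the libraries labelled Δgcn5 and 11.69, 11.19 and 11.20 in those labelled Δmst2. By their labels the mst1-ts and wild-type arrays share date and protocol. The 3′ minus 5′ signal of 18S rRNA was -0.50 in mst1-ts replicate 3, against -2.08 and -1.85 in its other replicates. It was -3.36 to -3.13 in wild type and -0.57 in Δgcn5 Δmst2 replicate 3, of the second date. That of 28S rRNA did not set mst1-ts replicate 3 apart, at 3.01 against 3.16 and 2.91. The cause was not tested.

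Of the post-replication repair genes, which encode ubiquitin enzymes that act on PCNA, rhp18 fell by 0.71 ± 0.13 in Δgcn5 Δmst2 (1.63-fold, adjusted p = 0.000826) and rhp6 by 0.48 ± 0.11 in Δmst2 Δelp3 (0.00619), while rad8 changed in no strain. rhp18 read 9.81, 9.96 and 9.94 in Δgcn5 Δmst2, against 10.59, 10.76 and 10.49 in wild type. rad21 (cohesin), rad24 and rad25 (proteins of the 14-3-3 family) stand outside repair proper. Of these only rad25 passed the test, with rises of 0.24 in Δgcn5 Δmst2 and 0.22 in mst1-ts, and it had the narrowest range of any member over the 24 arrays, 0.48 log2 units.

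Calls near the threshold often rested on 1 array. Of the 76 calls in the comparisons with wild type and of the triple mutant with Δelp3, 36 held when any 1 array of either group was left out and 40 did not, all with the direction kept. In mst1-ts orc6, as given above, orc2 (-0.40 to -0.39 without the array that ends the call), rfc2 (-0.46 to -0.32), rad17 (-0.51 to -0.33), rhp14 (-0.87 to -0.68), rhp7 (0.49 to 0.55) and rad25 (0.20 to 0.23) did not hold, while psf2, psf3, rfc3, mcm7, rad2, rad9, rad31 and rhp16 did. Each of the 7 calls that did not hold was lost without wild-type replicate 1 or without wild-type replicate 2. In Δgcn5 Δmst2 mcm4 (-0.44 to -0.42, ended by wild-type replicate 3 or Δgcn5 Δmst2 replicate 1), orc2 (-0.43 to -0.39), rfc5 (-0.42 to -0.38), rad16 (0.40 to 0.48), rad25 (0.21 to 0.24) and rad60 (-0.28 to -0.27) did not hold, and psf3, rfc2, sld3, rad1, rad54, mre11 and rhp18 did.

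In Δelp3 mcm3, orc1, rad1, rad4, rad16 and rhp16 held with any 1 array left out. mcm5, mcm7, orc2, orc4, orc5, rfc1, rfc3, sld3 and rhp26 did not, with changes between 0.31 and 0.55 for those that rose and between -0.33 and -0.27 for mcm7, and Δelp3 replicate 1 ended each of these but mcm7. In Δgcn5 Δelp3, where 1 of 2 arrays was then left, sld3, rad1, rad16 and mre11 held, while psf3 (-0.85 to -0.74) and the other 8 did not. In Δmst2 Δelp3 mcm3, orc1, rad1, rad3, rad4, rhp6 and rhp16 held, and orc2, rad16, rad17, rhp26 and mre11 did not (0.37 to 0.57). In the triple mutant orc1, psf3, sld3 and rad1 held, and mre11 was lost without wild-type replicate 3 (0.62).

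The remaining members, 19 of 53, passed the test in none of the 8 comparisons: mcm2, mcm6, orc3, rfc4, psf1, sld5, rad8, rad13, rad15, rad21, rad24, rad26, rad50, rad52, rad55, rad57, rhp23, rhp41 and rhp42.

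Across the whole set of arrays, 7 members had all 9 values of arrays lacking elp3 above all 15 others, and none had all below. They were mcm3, orc1, orc2, orc5, rfc1 and rfc4 of the replication genes and rhp26 of the repair genes. Of all features 3.77% were above in this way and 1.35% below. orc1 ranged from 11.51 to 11.74 (median 11.63) in arrays lacking elp3, against 10.75 to 11.43 (median 11.07) in the others. orc2 ranged from 11.49 to 11.93 (median 11.74), against 10.81 to 11.48 (median 11.05). rfc4 ranged from 11.95 to 12.37 (median 12.07), against 10.93 to 11.73 (median 11.57). The array of the second date that kept elp3, Δgcn5 Δmst2 replicate 3, was the highest of the 15 for mcm3 (11.66) and orc1 (11.43), and was low among them for orc2 (10.96). It read 10.95 for orc5, 10.52 for rfc1, 11.65 for rfc4 and 9.60 for rhp26. The highest of the 15 for these were 11.14, 10.62, 11.73 and 9.68. These 9 arrays also differ in labelling protocol, as given above, and its part in these values cannot be told apart from that of elp3.

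**Figure D4:**
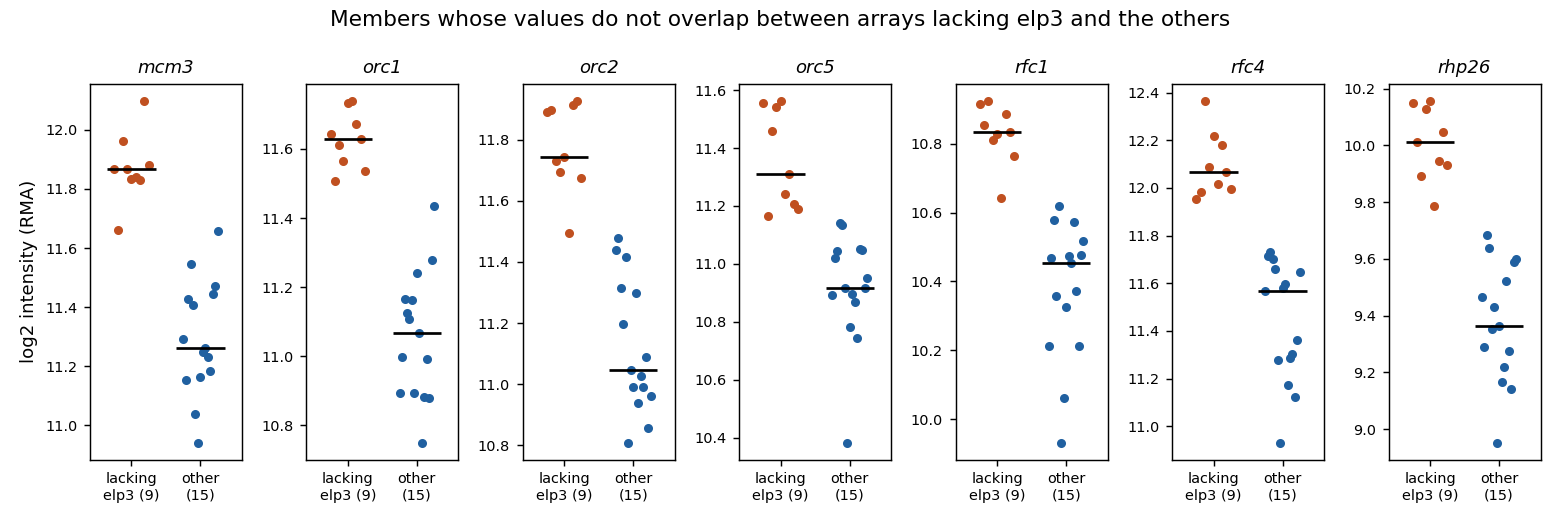
Log2 intensity of the 7 members whose values do not overlap, with the 9 arrays lacking elp3 at left (orange) and the other 15 at right (blue) in each panel, a black line at the median, and a separate y axis for each gene. For orc1 the left points run from 11.51 to 11.74 and the right points from 10.75 to 11.43.

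Strains lacking elp3 were also compared with one another, where date and protocol are shared. Against Δelp3 no member changed in Δgcn5 Δelp3 (1.1% of all features did) or in Δmst2 Δelp3 (0.763%) by limma. At an unadjusted p under 0.05 there were 5 members and 1 member, given without the share of all features. In the triple mutant against Δelp3 psf3 (by 0.96), rhp18 (by 0.68) and rad26 (by 0.65) fell and none rose, where 9.5% of features changed, 4.3% of all features higher and 5.2% lower, and 2.17% by 1.7 or more on the log2 scale. rad26 read 9.60 in the triple mutant, against 10.37, 10.19 and 10.19 in Δelp3. rhp18 read 10.16, against 10.93, 10.61 and 10.97. The triple mutant had 1 array, and these calls rested on each Δelp3 array. psf3 (-1.04 to -0.90) and rad26 (-0.68 to -0.59) were lost without any 1 of the 3, and rhp18 (-0.63 to -0.61) without replicate 1 or 3. Without Δelp3 replicate 1 no member was called, without replicate 2 rhp18 alone, and without replicate 3 none of these 3 but rad21, higher in the triple mutant by 0.84 (adjusted p = 0.0219).

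Departure of a double mutant from the sum of its single changes was tested for each pair of deletions. By limma no member departed for gcn5 with mst2 (1.39% of features did), gcn5 with elp3 (0.341%) or mst2 with elp3 (0.381%). At an unadjusted p under 0.05 there were 4, 0 and 5 members, given without the share of all features. The libraries labelled Δgcn5 and Δmst2 enter these tests, and rad54 given above was the member called without replicate 2 of each. Without Δmst2 replicate 2 alone, rad54 (1.13, adjusted p = 0.00709) and sld3 (0.63, 0.0472) were called for gcn5 with mst2.

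Other genes of the same processes, taken from lists of names rather than prefixes, were measured as well, and these lists too were chosen with results known. Of 44 other replication genes 17 fell and 1 rose in mst1-ts (median -0.27), 40.9% of the list against 35.6% of all features. Those that fell included dpb4 (1.53 ± 0.28), a subunit of DNA polymerase epsilon, cdc27 (1.13 ± 0.26), a subunit of DNA polymerase delta, top1 (0.95), the type I topoisomerase, and hsk1 (0.92), the Cdc7 kinase that fires origins. Of 62 other repair and checkpoint genes 20 fell and 4 rose in mst1-ts (median -0.27), 38.7% of the list. Both shares lay near that of all features, of which 21.8% fell and 13.7% rose. The structure-specific nuclease subunit slx4 (by 1.30) and the SMC5-SMC6 genes nse6 (1.30), nse4 (1.06) and smc5 (1.06) fell, while the end-resection gene ctp1 (1.08) and the mismatch repair gene msh6 (0.83) rose.

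In Δelp3 27.4% of the repair and checkpoint list was called, against 21.5% of all features, in Δgcn5 Δelp3 33.9% against 21.5%, and in Δmst2 Δelp3 27.4% against 21.9%. Rises outnumbered falls by more in the list than over all features, and this was not tested. Of all features 13%, 12.5% and 12.7% rose and 8.49%, 9.01% and 9.19% fell, in the same order. Among the 62, 17 rose and 0 fell in Δelp3, 20 rose and 1 fell in Δgcn5 Δelp3, and 16 rose and 1 fell in Δmst2 Δelp3, including smc5 (0.85 in Δelp3), the Ku subunit pku70 (0.73) and the glycosylase nth1 (0.74). Among the 44, 2 rose and 4 fell in Δelp3, 13.6% of the list against 21.5% of all features. There ssb3, the small subunit of replication protein A, fell by 1.19 ± 0.30 (adjusted p = 0.00853). In the triple mutant 8 of 62 rose and 1 fell, and 1 of 44 fell, beside 6.36% of all features that rose and 5.4% that fell.

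The genes of the G1/S wave, which are transcribed by the MBF factor, had their most calls in Δgcn5 Δmst2. Of 21 such genes and regulators 10 rose and 2 fell (median 0.55), 57.1% of the list against 24.9% of all features. The rises and falls were 2 and 2 in Δelp3, 2 and 4 in mst1-ts, 2 and 2 in Δgcn5 Δelp3, 1 and 0 in Δmst2 Δelp3 and 2 and 1 in the triple mutant, and these counts were not tested against each other. Of all features 21.5%, 35.6%, 21.5%, 21.9% and 11.8% were called in these strains, in the same order. The rises were in cdc22 (1.25 ± 0.34), which encodes the large subunit of ribonucleotide reductase, cdt2 (1.21), an adaptor of the ubiquitin ligase that acts on Cdt1 and Spd1, cdc18 (1.08), the MCM loader, and cdc10 (1.01), a subunit of MBF itself, with res1, another subunit, lower by 0.92. Most replication members did not move with them, since among mcm, orc, rfc, psf and sld genes 1 rose and 5 fell in this strain. Core histone genes, transcribed in S phase, fell in 3 of 9 cases in Δelp3 and 4 of 9 in Δmst2 Δelp3, among them hhf1 (by 0.63 and 0.79), beside 8.49% and 9.19% of all features that fell. In Δgcn5 Δelp3 3 fell and 1 rose, beside 9.01% and 12.5% of features. In Δgcn5 Δmst2 and in the triple mutant 1 fell, beside 11.3% and 5.4% of features, and 1 rose in mst1-ts, beside 13.7%. Of 17 genes of mitosis and cell separation, 4 rose and 1 fell in Δmst2 Δelp3 and 1 rose and 4 fell in Δgcn5 Δelp3 (29.4% of the list each, against 21.9% and 21.5% of all features). In Δelp3 1 rose and 2 fell, in mst1-ts 1 rose and 1 fell, and in Δgcn5 Δmst2 and the triple mutant 1 rose. The shares of all features called in these strains were 21.5%, 35.6%, 24.9% and 11.8%.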

How the data were processed

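Total RNA was labelled and hybridised by the authors to Affymetrix arrays. As deposited, the values are RMA log2 intensities of probe sets, computed by the authors, who tested them with limma (versions not given in the sources used here). Values ran from 4.85 to 15.35 and array medians from 10.99 to 11.08. Precision is limited by the number of arrays. The methods give a growth range and an RNA amount other than the labels, and name one-cycle labelling for all arrays where the labels of the 9 arrays lacking elp3 name MessageAmp.

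Of 5028 probe sets, 29 controls and 18 dimmer probe sets of genes with several were left out, which left 4981 features (2899 with a symbol). All 53 members had 1 probe set each and were found by gene identifier in the RefSeq annotation of assembly ASM294v3, used for names only, and 5 symbols were updated. The members and gene lists were chosen with earlier results of these data known.

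With limma 3.58.1 under R 4.3.3, group means of all 24 arrays were estimated (15 residual degrees of freedom, prior 2.92), with 14 two-sided contrasts and Benjamini-Hochberg adjustment over all features. Errors are SE of the fit. Every member was accounted for. Those named with values passed the test, belong to a complex described as a whole, or are named to say that they did not pass. The 3 replication and 3 repair genes with the largest change are given array by array. Replicate numbers showed no pairing common to all groups (median correlation of same-numbered deviations -0.01). It differed between pairs of groups, at 0.405, 0.401 and 0.559 for Δgcn5 Δmst2 with mst1-ts. For the libraries labelled Δgcn5 with those labelled Δmst2 it was -0.31, -0.705 and -0.507. The script was tested on simulated data. Alternatives tried were other normalisation, filters, covariates, array weights, thresholds and left-out arrays.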

Additional observations from a re-analysis of the deposited data

How the results depend on the processing

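No called change of a member reversed its direction under any alternative. Counts are of members called, out of 53, with all 24 arrays, and strains are set against wild type unless named otherwise. For most settings in this section the share of all features called was not counted. A changed count of members therefore cannot be told apart from a change over all features. Array weights raised every count that they changed, to 16 in Δgcn5 and 18 in Δmst2 (0 each), 37 in Δgcn5 Δmst2 (13), 34 in mst1-ts (15), 27 in Δelp3 (15), 40 in Δgcn5 Δelp3 (13), 28 in Δmst2 Δelp3 (12), 23 in the triple mutant (5), 5 and 20 in Δgcn5 Δelp3 and the triple mutant against Δelp3 (0 and 3), and 20, 4 and 2 for departures from additivity in Δgcn5 Δmst2, Δgcn5 Δelp3 and Δmst2 Δelp3 (0 each). The estimate of these weights stopped before it converged, and the cause of the rise was not tested. Requiring a log2 change of 1.7 left 0 wherever there had been calls, and requiring 1.7-fold left 1 in Δelp3, 6 in mst1-ts, 2 in Δgcn5 Δmst2, 4 in Δgcn5 Δelp3, 0 in Δmst2 Δelp3, 2 in the triple mutant and 1 in the triple mutant against Δelp3. Experiment date as a covariate left 0 in Δelp3, Δgcn5 Δelp3, Δmst2 Δelp3 and the triple mutant. Arrays of one date alone, with fewer samples, gave 8 in mst1-ts, 4 in Δgcn5 Δmst2, 3 in Δgcn5 Δelp3 against Δelp3 and 10 in the triple mutant against Δelp3. Leaving out both libraries that went against their labels gave 2 in Δgcn5, 9 in the triple mutant, 5 in the triple mutant against Δelp3 and 1 departure of gcn5 with mst2. Leaving out wild-type replicate 2 as well gave 2 in Δgcn5, 1 in Δmst2, 5 in the triple mutant against Δelp3 and 1 departure of gcn5 with mst2. Leaving out Δmst2 replicate 1 in place of wild-type replicate 2 gave 2 in Δgcn5, 20 in Δgcn5 Δmst2, 21 in Δgcn5 Δelp3, 20 in Δmst2 Δelp3, 10 in the triple mutant, and 1 and 6 in Δgcn5 Δelp3 and the triple mutant against Δelp3. Without the dimmest 20% of features the counts were 9 in mst1-ts and 7 in Δmst2 Δelp3, where 39 members were tested. Fits of only the groups compared gave 0 in the triple mutant and 4 in Δgcn5 Δelp3 against Δelp3. The fits on one date and without Δmst2 replicate 1 were chosen after seeing the data.

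Leaving out 1 array at a time gave 10 to 14 for mst1-ts, 7 to 12 for Δelp3, 10 to 12 for Δgcn5 Δmst2, 4 to 14 in Δgcn5 Δelp3, 9 to 12 in Δmst2 Δelp3, 4 to 5 in the triple mutant, 0 to 1 in the triple mutant against Δelp3, 0 to 2 in Δmst2 (2 without replicate 3) and 0 to 2 departures of gcn5 with mst2 (2 without Δmst2 replicate 2), with 0 in every other comparison. A replicate block gave 14 in Δelp3, 15 in mst1-ts, 13 in Δgcn5 Δmst2, 12 in Δgcn5 Δelp3, 12 in Δmst2 Δelp3, 5 in the triple mutant and 2 in the triple mutant against Δelp3. Samples of the same number had no pairing common to all groups (correlation of deviations -0.705 to 0.559). Against Δelp3, and for the departures, the block left the other counts at 0. The number of arrays limits the precision, most of all in the triple mutant with 1.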
